A study of Mus musculus with 6 samples.

Results

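The 10 genes described here mark pyramidal cells of hippocampal field CA1: Wfs1, Mpped1, Gm2115, Nov, Fibcd1, Gpr161, Pou3f1, Man1a, Dcn and Ndst4. They were taken by gene name from a table of 24935 genes, and all 10 were present in it. Each had at least 400 reads in every library, so all 10 passed the filter for testing, a mean value of at least 10 over the libraries. The left hippocampus of C57BL/6 mice was sequenced at postnatal day 14 (P14). In the hyperoxia group, 3 pups had been kept with their dams in a chamber at 85% oxygen and normal pressure from P2 to P14, and the air group was 3 pups kept in room air. Pups of both sexes were used in the study, but the labels do not say which library came from which sex. They name no transgene and no treatment other than the oxygen. Each library came from the whole hippocampus, and the libraries are numbered 1 to 3 in each group after the columns of the table, which do not say which labelled animal each is. Directions rest on the group names of those columns. In the paper's tables, the mRNA changes of Camk2a, Slc17a7 (given there as VGLUT1) and Cspg4 have the opposite sign to the difference between these columns. The directions below are thus not agreed between the sources. No independent measurement of oxygen exposure was available to settle which is right. If the column names were exchanged, every direction below would turn.

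Field CA1 is the last stage of the hippocampal circuit. Its pyramidal cells take input from field CA3 and from the entorhinal cortex and send the output of the hippocampus to the subiculum and cortex, and they are known for their sensitivity to oxygen deprivation and oxidative stress. The 10 genes do not form a pathway. They share enriched expression in CA1 and encode an endoplasmic reticulum protein (Wfs1), Golgi enzymes (Man1a and Ndst4), secreted matrix proteins (Nov and Dcn), membrane receptors (Fibcd1 and Gpr161), a transcription factor (Pou3f1), a predicted phosphoesterase (Mpped1) and a small membrane protein (Gm2115, also named Ctxnd1). In whole tissue, fewer CA1 cells and less RNA per cell cannot be told apart.

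Promoter windows from 250 bases before to 50 bases after the annotated start were found in RefSeq (GRCm38.p6) for 6 of the 10 genes, in 8 windows. Nov, Pou3f1, Dcn and Ndst4 had no entry. The windows of Gm2115 and Mpped1 are shown because these genes changed in opposite directions in hyperoxia-exposed mice. Capitals mark CpG dinucleotides. The Gm2115 window lies at chr7:84528724-84529023 on the plus strand, and the Mpped1 windows lie at chr15:83779773-83780072 and chr15:83784579-83784878 on the plus strand.
Gm2115: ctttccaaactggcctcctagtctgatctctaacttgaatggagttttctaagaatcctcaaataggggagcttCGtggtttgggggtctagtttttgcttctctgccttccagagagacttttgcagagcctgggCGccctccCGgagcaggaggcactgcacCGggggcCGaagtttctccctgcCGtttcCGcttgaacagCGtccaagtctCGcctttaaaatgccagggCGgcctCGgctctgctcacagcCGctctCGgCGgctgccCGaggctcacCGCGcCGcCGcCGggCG
Mpped1, first window: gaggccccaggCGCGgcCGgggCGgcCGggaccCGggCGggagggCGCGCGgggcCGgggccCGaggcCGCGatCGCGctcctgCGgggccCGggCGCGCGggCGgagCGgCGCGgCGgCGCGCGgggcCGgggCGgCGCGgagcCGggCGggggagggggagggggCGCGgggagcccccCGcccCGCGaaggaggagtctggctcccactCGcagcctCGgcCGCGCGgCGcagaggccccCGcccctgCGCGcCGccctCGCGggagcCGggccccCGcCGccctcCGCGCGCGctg
Mpped1, second window: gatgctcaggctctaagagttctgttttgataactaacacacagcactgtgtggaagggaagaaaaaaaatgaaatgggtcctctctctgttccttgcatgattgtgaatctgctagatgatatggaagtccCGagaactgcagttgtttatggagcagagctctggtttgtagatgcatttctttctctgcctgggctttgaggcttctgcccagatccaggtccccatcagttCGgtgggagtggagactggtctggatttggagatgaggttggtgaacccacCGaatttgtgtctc

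The first Mpped1 window was 89.3% G or C with 59 CpG, and the second was 47.3% with 3 CpG. The Gm2115 window lay between them at 60% with 21 CpG. Over 32851 promoter windows the medians were 52.7% and 7 CpG. All 8 windows were searched on both strands for ACGTG (the core bound by hypoxia-inducible factors), TGACNNNGC (the antioxidant response element), TGACGTCA (the cyclic AMP response element), TGANTCA (the AP-1 site), ATGCAAAT (the octamer of POU factors) and CAGATG (the E-box preferred by NeuroD factors). The Wfs1 window and the first Gpr161 window each held 1 CAGATG, a motif present in 17.2% of all windows. The Man1a window held 1 TGACNNNGC, present in 12.4% of all windows. The printed windows held none of the 6 motifs, of which ACGTG occurred in 19.6%, TGANTCA in 7.81%, TGACGTCA in 1.79% and ATGCAAAT in 1.74% of all windows.

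Reads on genes numbered 30384052 to 38746972 per library. Values below are normalized counts, that is, reads divided by a size factor for each library, and changes are log2 fold changes of hyperoxia over air on the log2(value + 1) scale. They were tested with limma across 17778 genes, and a gene was called at a Benjamini-Hochberg adjusted p under 0.05. On a principal component analysis, air and hyperoxia libraries lay apart on the first axis (52.7% of the variance). On the second axis (19.53%), hyperoxia libraries 2 and 3 lay at opposite ends. The hyperoxia libraries differed from one another more than the air libraries did. Chi-square per gene was 15.4 to 47.2 between hyperoxia pairs and 6.51 to 10.5 between air pairs.

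Of the 10 CA1 genes, Gm2115 was lower in hyperoxia-exposed mice, Mpped1 and Nov were higher, and the other 7 did not pass the test. The 3 calls among 10 compare with 30.5% called among all genes tested. Hyperoxia was called higher for 2 of the 10, against 14.9% of all genes, and lower for 1, against 15.6%. The median log2 change over the 10 genes was -0.21, beside -0.01 over all genes. All 3 hyperoxia libraries lay above all 3 air libraries for 2 of the 10 genes, against 22.3% of all genes, and below them for 1, against 23.8%. The share called was thus near that of all genes, and nothing particular to the 10 genes follows from it. Without hyperoxia library 2, 4 of the 10 genes were called, and without hyperoxia library 3, 6 were. Over all 17778 genes tested, 7756 were called without hyperoxia library 2 and 4982 without hyperoxia library 3, against 5425 with every library. The changes of the 3 called genes without library 2 and without library 3 were -0.64 and -0.93 for Gm2115, 0.32 and 0.44 for Mpped1, and 0.41 and 0.47 for Nov, all called. The calls were less stable to other libraries. Only Gm2115 was called without air library 2 or without air library 3, and neither Mpped1 nor Nov was called without hyperoxia library 1. Calls over all genes numbered 3087 without air library 2, 3662 without air library 3 and 3378 without hyperoxia library 1.

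**Figure D1:**
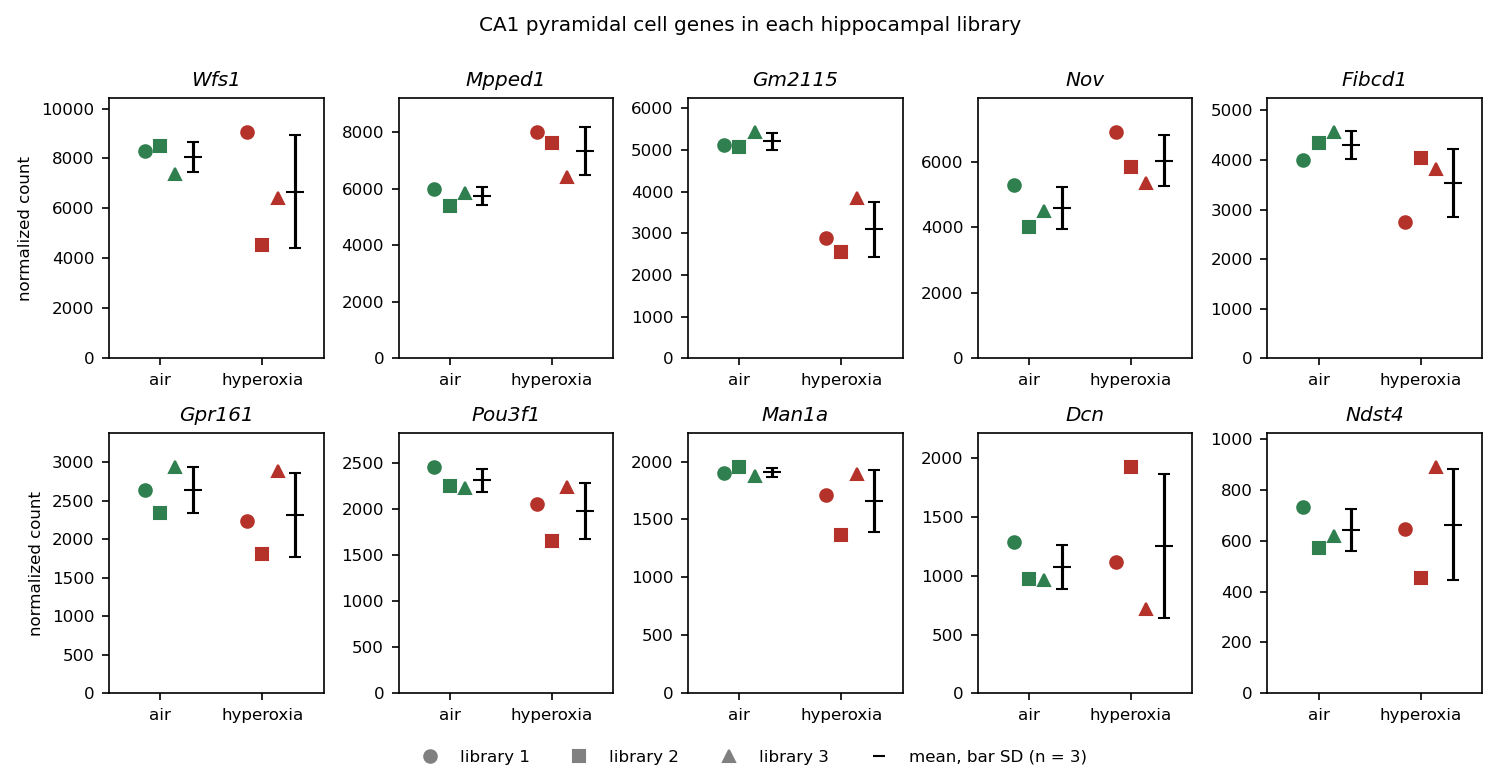
Normalized count of each CA1 gene in each of the 3 air and 3 hyperoxia libraries, 1 panel per gene, with the marker shape giving the library number and the bar the mean and SD (n = 3). Air and hyperoxia libraries separate for Gm2115, Mpped1 and Nov, whereas hyperoxia library 2 lies far below (Wfs1) or above (Dcn) the other libraries.

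**Figure D2:**
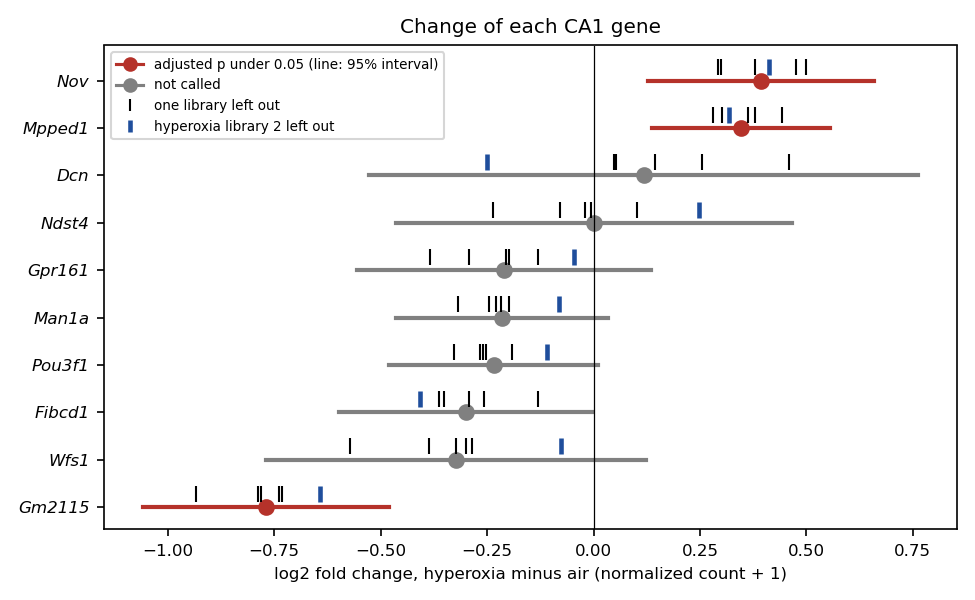
Log2 fold change of each CA1 gene, hyperoxia minus air, with its 95% interval from limma and, as ticks, the change with each library left out. The intervals of Nov, Mpped1 and Gm2115 lie clear of 0, and leaving out hyperoxia library 2 moves Dcn from 0.12 to -0.25.

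Gm2115 encodes a small single-pass membrane protein. It was at 5116, 5073 and 5432 normalized counts in the air libraries and at 2896, 2561 and 3839 in the hyperoxia libraries. The groups were far apart, since even the highest hyperoxia value was under the lowest air value. The mean fell from 5207 ± 196 to 3098 ± 663 (SD, n = 3 each), to 59.5% of the air mean, a log2 change of -0.77 (SE 0.13, limma adjusted p = 0.0027). The 95% interval ran from -1.06 to -0.48. The call held under all 17 alternative settings. The gene lies on chromosome 7 (84528954 to 84583531, plus strand, GRCm38), and its exons share 127 bases with the opposite-strand gene Gm44928.

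Mpped1 encodes a metallophosphoesterase domain protein of brain. Its normalized counts were 6001, 5395 and 5869 in air and 8014, 7623 and 6404 in hyperoxia. The groups did not overlap, although hyperoxia library 3 was near the highest air library. The mean rose from 5755 ± 319 to 7347 ± 839.6 (SD, n = 3 each), to 128% of air (log2 change 0.35, SE 0.09, limma adjusted p = 0.020). The call was lost when air library 1, 2 or 3 or hyperoxia library 1 was left out, at adjusted p = 0.055, 0.097, 0.058 and 0.084. The gene spans 83779467 to 83858494 on the plus strand of chromosome 15. The windows printed above were placed at RefSeq starts and lie inside this span. Its paralogue Mpped2 had a log2 change of -0.17 (limma adjusted p = 0.13).

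Of the secreted members, Nov was called and Dcn was not, and the difference between them was not tested. Nov (listed as Ccn3 in the current annotation) is a matricellular protein of the CCN family that binds integrins. It was at 5287, 4016 and 4485 normalized counts in air and at 6901, 5835 and 5356 in hyperoxia. Hyperoxia library 3 exceeded air library 1 by a small margin, and the groups did not overlap. Nov rose from 4596 ± 642 to 6031 ± 791 (SD, n = 3 each), to 131% of air (log2 change 0.39, SE 0.12, limma adjusted p = 0.033). The adjusted p was 0.14 without air library 2, 0.097 without air library 3 and 0.12 without hyperoxia library 1. Nov lies on chromosome 15 at 54745702 to 54754039, plus strand.

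Cyr61 and Ctgf, of the same family, also rose. Both are matrix proteins known as targets of the YAP and TAZ co-activators. Ctgf was at 194, 171 and 243 normalized counts in air and at 578, 476 and 454 in hyperoxia (log2 change 1.31, SE 0.15, limma adjusted p = 0.00061). Cyr61 was at 161, 166 and 170 in air and at 340.3, 293 and 305 in hyperoxia (log2 change 0.91, SE 0.11, limma adjusted p = 0.00077). Of the 6 CCN genes, 4 were tested and 3 rose, with none lower, against 14.9% and 15.6% of all genes. In this family, 2 were called without air library 2, air library 3 or hyperoxia library 1.

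Dcn encodes decorin, a small leucine-rich proteoglycan that binds collagen and growth factors, and it is also made by fibroblasts of the meninges. Its normalized counts were 1286, 971 and 965 in air and 1114, 1922 and 719 in hyperoxia. Hyperoxia library 2 was above all other libraries and hyperoxia library 3 below all of them. The means were 1074 ± 184 and 1252 ± 613 (SD, n = 3 each), with a log2 change of 0.12 (SE 0.29, limma adjusted p = 0.78) and an interval from -0.53 to 0.76. Without hyperoxia library 2 the change was -0.25. Among 8 proteoglycans of this family that were tested, 4 rose (Fmod, Ogn, Lum and Bgn, at 1.34, 1.33, 0.82 and 0.45 log2) and 1 fell (Prelp, -0.57). Over all genes, 14.9% were called higher and 15.6% lower. Calls in this family dropped from 5 to 2 without air library 2 or air library 3 and to 3 without air library 1. Dcn lies on chromosome 10 at 97479609 to 97518143, plus strand.

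Markers of leptomeningeal fibroblasts were higher in hyperoxia, with 7 of 7 called, against 14.9% of all genes called higher, and a median log2 change of 0.85. With single libraries left out, 5 to 7 were called. Lum lost its call without any air library or hyperoxia library 2, at adjusted p = 0.062 to 0.14 by limma. Their defining collagens Col1a2 and Col3a1 rose by 1.09 and 0.85 log2. The summed level of the list was 3174 to 3911 normalized counts in air and 7545, 7242 and 5121 in hyperoxia libraries 1, 2 and 3. Lum and Fmod belong to both this list and the proteoglycans. The share of these cells in the levels of Dcn, Nov and the proteoglycans was not tested.

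Wfs1 encodes wolframin, a calcium-regulating protein of the endoplasmic reticulum, and is a widely used label of CA1. It was at 8307, 8479 and 7362 normalized counts in air and at 9058, 4554 and 6417 in hyperoxia. Hyperoxia libraries 2 and 3 were below every air library, and hyperoxia library 1 was above all of them. The means were 8049 ± 601 and 6676 ± 2263 (SD, n = 3 each), with a log2 change of -0.32 (SE 0.20, limma adjusted p = 0.25) and an interval from -0.77 to 0.12. Leaving out hyperoxia library 1 gave -0.57 (limma adjusted p = 0.028), and leaving out hyperoxia library 2 gave -0.08. Wfs1 lies on chromosome 5 at 36966104 to 36989205, minus strand.

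Of 15 genes of the endoplasmic reticulum stress response, Wfs1 included, 2 were called lower and none higher, against 15.6% and 14.9% of all genes. All 3 hyperoxia libraries lay below all 3 air libraries for 7 of the 15, against 23.8% of all genes. They lay above them for 0, against 22.3%. Manf, a secreted factor of the stressed reticulum, fell by 0.53 log2 (limma adjusted p = 0.0015), and Calr, the calcium-binding chaperone calreticulin, fell by 0.52 (limma adjusted p = 0.0017). The median over the list was -0.08. The list had 6 calls when hyperoxia library 2 was left out, and 5 once values were corrected for length and GC content.

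The Golgi enzymes did not pass the test. Man1a encodes a class I mannosidase that trims N-glycans. It was at 1899.5, 1951 and 1874 normalized counts in air and at 1714, 1367 and 1895 in hyperoxia, with hyperoxia library 3 inside the air range. The means were 1908 ± 39.2 and 1658 ± 268 (SD, n = 3 each), with a log2 change of -0.22 (SE 0.11, limma adjusted p = 0.17). It was called lower without hyperoxia library 3 (-0.32, adjusted p = 0.039) and after correction for gene length and GC content (-0.36, adjusted p = 0.0057). Its paralogue Man1a2 rose by 0.32 log2 (limma adjusted p = 0.015), and Man1c1 stood at 0.12 (limma adjusted p = 0.42). In the N-glycan trimming and branching list, 5 of 12 genes rose and 1 fell, against 14.9% and 15.6% of all genes. Man2a1 stood at 1.03, Mgat5 at 0.50 and Mgat4a at 0.40 log2. Leaving out any air library or hyperoxia library 1 reduced the 6 calls in this list to 2 or 3. Mgat4a lost its call without air library 1, air library 2 or hyperoxia library 1 (adjusted p = 0.065, 0.077 and 0.072 by limma), and its change was 0.15 (adjusted p = 0.083) once corrected for length and GC content. The call of Man1a2 was lost when any air library or hyperoxia library 1 was left out (adjusted p = 0.050 to 0.074 by limma) and after the length and GC correction (adjusted p = 0.70). Man1a lies on chromosome 10 (53904785 to 54076609, minus strand), and it shares 147 exon bases with the opposite-strand gene Gm16998, whose mean was 5.39 normalized counts.

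Ndst4 encodes an N-deacetylase and N-sulfotransferase of heparan sulfate. It was at 733, 571 and 619 normalized counts in air and at 645, 453 and 888 in hyperoxia, so both the lowest and the highest library were hyperoxia libraries. The means were 641 ± 83.1 and 662 ± 218 (SD, n = 3 each), with a log2 change of 0.0011 (SE 0.21, limma adjusted p = 0.997) and an interval from -0.47 to 0.47. Ndst1, the most widely expressed relative, rose by 0.39 log2 (limma adjusted p = 0.030). The call of Ndst1 was lost when any library but hyperoxia library 2 was left out, at adjusted p = 0.065 to 0.12. Ndst2 stood at -0.25 (limma adjusted p = 0.069) and Ndst3 at 0.01 (limma adjusted p = 0.90). Of 20 heparan sulfate genes, Ndst4 included, 8 were called higher and none lower, against 14.9% and 15.6% of all genes. All 3 hyperoxia libraries lay above all 3 air libraries for 10 of the 20, against 22.3% of all genes. They lay below them for 2, against 23.8%. Without air library 2, 5 of the 20 were called. Among those called, the largest changes were in Hs3st5 (1.22), Hs6st2 (1.14), Hs3st2 (0.84) and Sulf1 (0.84), which add sulfate to the chain or, in the case of Sulf1, remove it. Ndst4 lies on chromosome 3 at 125404076 to 125728899, plus strand.

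**Figure D3:**
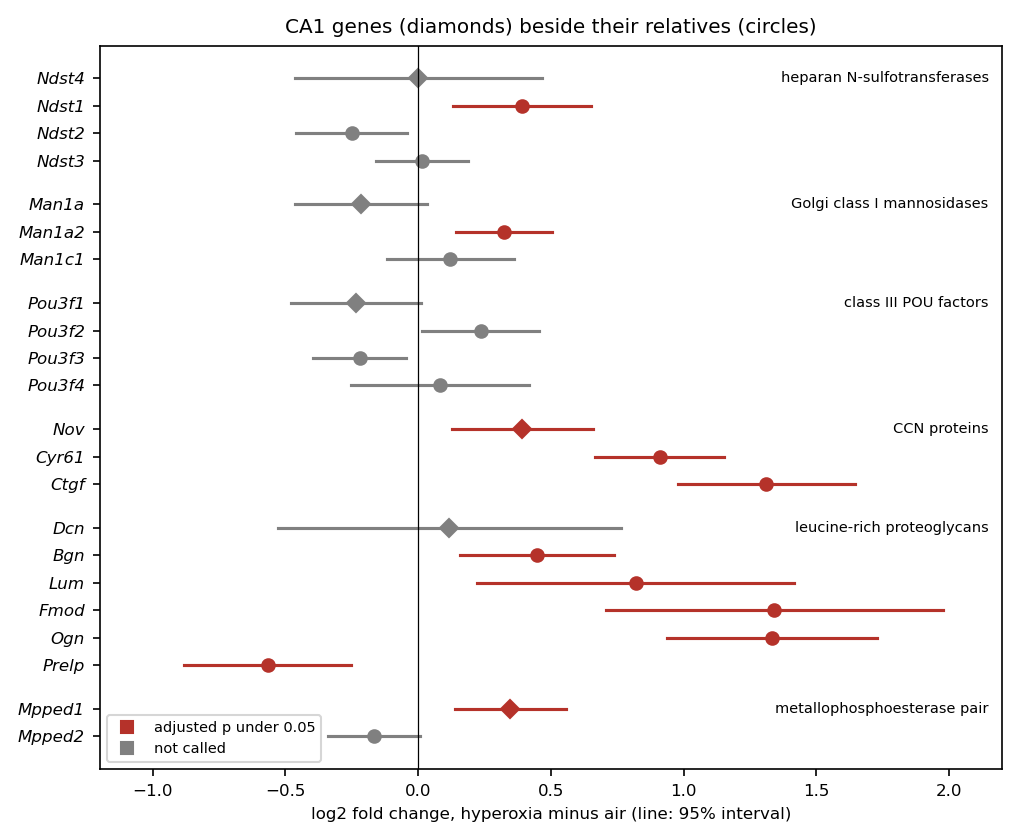
Log2 fold change, hyperoxia minus air, with 95% intervals for 6 CA1 genes (diamonds) and their closest relatives (circles), including the 5 proteoglycans that passed the test. Ctgf, Cyr61 and Nov all lie to the right of 0, and Ndst4, Man1a and Dcn did not pass the test while Ndst1, Man1a2 and Bgn did.

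The receptors did not pass the test. Fibcd1 encodes a membrane receptor for acetylated sugars that has also been described as a receptor for chondroitin sulfate. It was at 3997, 4342 and 4564 normalized counts in air and at 2753, 4046 and 3809 in hyperoxia. Hyperoxia libraries 1 and 3 were below all air libraries, and hyperoxia library 2 was inside their range. The means were 4301 ± 286 and 3536 ± 689 (SD, n = 3 each), with a log2 change of -0.30 (SE 0.13, limma adjusted p = 0.11). It was called lower without hyperoxia library 2, at -0.41 (limma adjusted p = 0.016). Of Fibcd1 and the related ficolins, 2 genes could be tested and neither was called. Fibcd1 lies on chromosome 2 at 31813290 to 31846005, minus strand.

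Gpr161 encodes an orphan receptor of the primary cilium that restrains Hedgehog signalling. It was at 2642, 2341 and 2938 normalized counts in air and at 2242, 1810.3 and 2896 in hyperoxia, and the groups overlapped. The means were 2640.4 ± 298 and 2316 ± 546 (SD, n = 3 each), with a log2 change of -0.21 (SE 0.15, limma adjusted p = 0.33). It was called lower without hyperoxia library 3 (-0.38, adjusted p = 0.033) and after the length and GC correction (-0.39, adjusted p = 0.020). Among 15 genes of the cilium and Hedgehog pathway, 2 rose and 1 fell, against 14.9% and 15.6% of all genes. Gli3, whose product is mainly a repressor of the pathway, rose by 0.91 log2 (limma adjusted p = 0.0013). Ptch1, the Hedgehog receptor and a target of the pathway, rose by 0.42 (limma adjusted p = 0.0057), but stood at 0.13 (adjusted p = 0.16) once corrected for length and GC content. Calls in the list numbered 5 after the length and GC correction. Gpr161 lies on chromosome 1 at 165295789 to 165326745, plus strand.

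Pou3f1 encodes a POU domain transcription factor. It was at 2458, 2256 and 2232 normalized counts in air and at 2055, 1652 and 2239 in hyperoxia, with hyperoxia library 3 inside the air range. The means were 2315 ± 124 and 1982 ± 300.5 (SD, n = 3 each), with a log2 change of -0.23 (SE 0.11, limma adjusted p = 0.13). It was called lower without hyperoxia library 3, at -0.33 (limma adjusted p = 0.036). The other class III factors did not pass the test either: Pou3f2 stood at 0.24 (adjusted p = 0.098), Pou3f3 at -0.22 (adjusted p = 0.058) and Pou3f4 at 0.08 (adjusted p = 0.71) by limma. Pou3f1 lies on chromosome 4 (124656807 to 124660655, plus strand), and it shares 330 exon bases with the antisense gene Gm2164, whose mean was 83.8 normalized counts.

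Levels between genes were compared as reads per exon length and library size (RPKM). In air, Wfs1 was highest at 58.8 ± 4.20 RPKM, followed by Nov at 44.3 ± 5.83, Mpped1 at 37.1 ± 1.88 and Fibcd1 at 25.1 ± 1.87 (SD, n = 3). Gm2115 stood at 19.6, Pou3f1 at 16.6, Gpr161 at 10.5, Man1a at 5.48, Dcn at 5.09 and Ndst4 at 1.51 RPKM. Only Man1a and Dcn overlapped with their neighbour in this order. In hyperoxia the order was Nov (62.0), Wfs1 (52.1), Mpped1 (50.4), Fibcd1 (21.9), Pou3f1 (15.2), Gm2115 (12.4), Gpr161 (9.81), Dcn (6.30), Man1a (5.07) and Ndst4 (1.67). Nov, Wfs1 and Mpped1 overlapped in turn, as did Pou3f1, Gm2115, Gpr161, Dcn and Man1a, each with the next gene in that order.

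**Figure D4:**
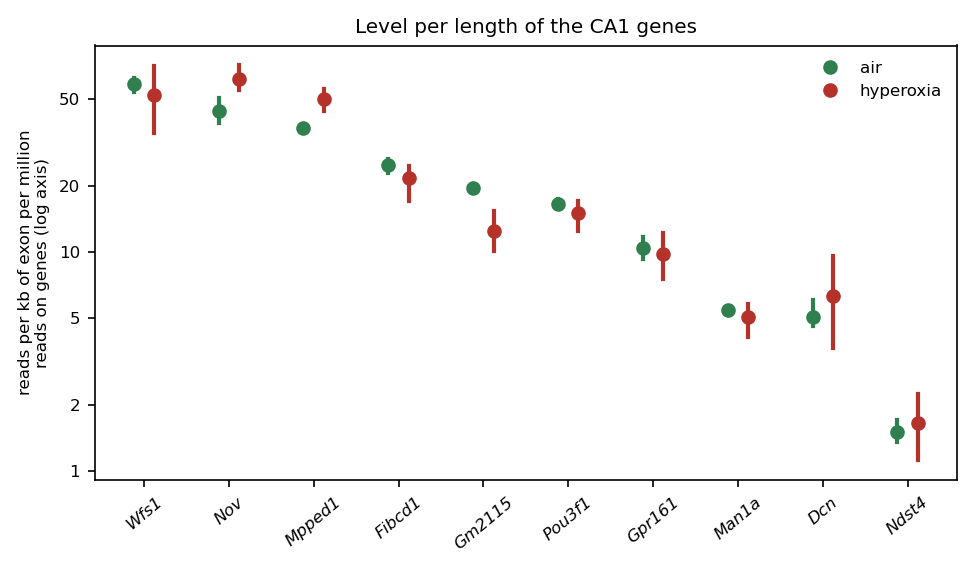
Level of each CA1 gene in RPKM on a log axis, with the mean of each group as a point and a line from its lowest to its highest library (n = 3). In air, Wfs1 is highest and Ndst4 lowest, and in hyperoxia Nov is highest and Gm2115 falls below Pou3f1.

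Most of the 10 genes varied more between the hyperoxia libraries than between the air libraries. The SD of log2 values was larger in hyperoxia for 9 of the 10, Nov being the exception, as it was for 71.3% of all genes tested and for 79.3% of the 8088 genes with a mean at least that of Ndst4. The median SD over the 10 genes was 0.10 in air and 0.30 in hyperoxia, beside 0.06 and 0.13 over those 8088 genes. Dcn, Wfs1 and Ndst4 had the widest spread in hyperoxia, with SDs of 0.71, 0.50 and 0.49. These stood at percentiles 99.9, 99.4 and 99.3 of the same 8088 genes, which were not matched to the level of each gene. Hyperoxia library 2 was the lowest of its group for 6 of the 10 genes, against 39.3% of all genes, and the highest for Dcn and Fibcd1.

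The ratio of Wfs1 to Dcn was 6.46, 8.73 and 7.63 in air and 8.13, 2.37 and 8.92 in hyperoxia libraries 1, 2 and 3. Mpped1 over Gm2115 was 1.17, 1.06 and 1.08 in air and 2.77, 2.98 and 1.67 in hyperoxia. This pair was chosen for its opposite calls, so its ratio describes those calls again. Markers of thalamus were also uneven across the hyperoxia libraries. Their summed level was 2919 to 3191 normalized counts in air and 4350.0, 6015 and 4521 in hyperoxia libraries 1, 2 and 3. Choroid plexus markers summed to 542 to 1380 in air and to 701, 481 and 8101 in hyperoxia. Most of the highest sum was 1 gene, Ttr, at 272, 167 and 887 in air and at 350, 183 and 7454 in hyperoxia. Called higher were 3 of 7 thalamus, 1 of 6 choroid plexus and 2 of 6 neocortex genes, against 14.9% of all genes. Differences of these lists from that share were not tested. Only 1 thalamus gene was called without air library 2. No marker of these lists was at 0 in any library. The part of such tissue in the spread of the CA1 genes was not tested.

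Other genes of CA1 and its neighbours gave a check on the label. Of 10 further CA1 genes, 6 rose and 3 fell, against 14.9% and 15.6% of all genes, with a median log2 change of 0.57. Col5a1, a collagen chain also made by fibroblasts, rose by 1.01 log2, and Htr2c, a serotonin receptor also abundant in choroid plexus, rose by 0.85. Spink8, a protease inhibitor used as a CA1 marker, was at 289, 341 and 304 in air and at 147, 186 and 190.1 in hyperoxia (log2 change -0.84, SE 0.13, limma adjusted p = 0.0021). Without air library 2, air library 3 or hyperoxia library 1, 5 of the 10 were called in place of 9. Genes for CA1 thus moved both ways, and whole tissue cannot place any of them in CA1 cells.

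Markers shared by all pyramidal cells were lower in hyperoxia-exposed mice, with 6 of 8 called lower, none higher and a median log2 change of -0.50. Nrgn, a calmodulin-binding protein of dendrites, fell by 0.89 log2, and the neuronal transcription factors Neurod6 and Neurod2 fell by 0.75 and 0.71. Camk2a, a kinase of excitatory synapses, fell by 0.51, but with quantile scaling its change was -0.16 (limma adjusted p = 0.26). Among genes of field CA3, 3 of 6 fell and 1 rose. Field CA2 had 1 of 5 lower (Rgs14, -0.86) and 1 higher (Cacng5, 0.31). Dentate granule cells had 4 of 6 lower and none higher, including C1ql2 at -1.24, and 2 were called without air library 1, air library 2 or hyperoxia library 1. Cacng5 lost its call without any library but hyperoxia library 2, at adjusted p = 0.052 to 0.13. Of the 8 pyramidal genes, 3 were called with quantile scaling, and 4 without air library 1 or air library 2. Of 5 oligodendrocyte precursor genes, 2 rose, Pdgfra by 0.58 and Cspg4 by 0.41. The 3 calls among the 10 CA1 genes stood beside 9 of 10 for the further CA1 genes, of which 6 were higher and 3 lower. Genes common to pyramidal cells had 6 of 8 called, and the share over all genes tested was 30.5%. The differences between the lists were not tested.

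**Figure D5:**
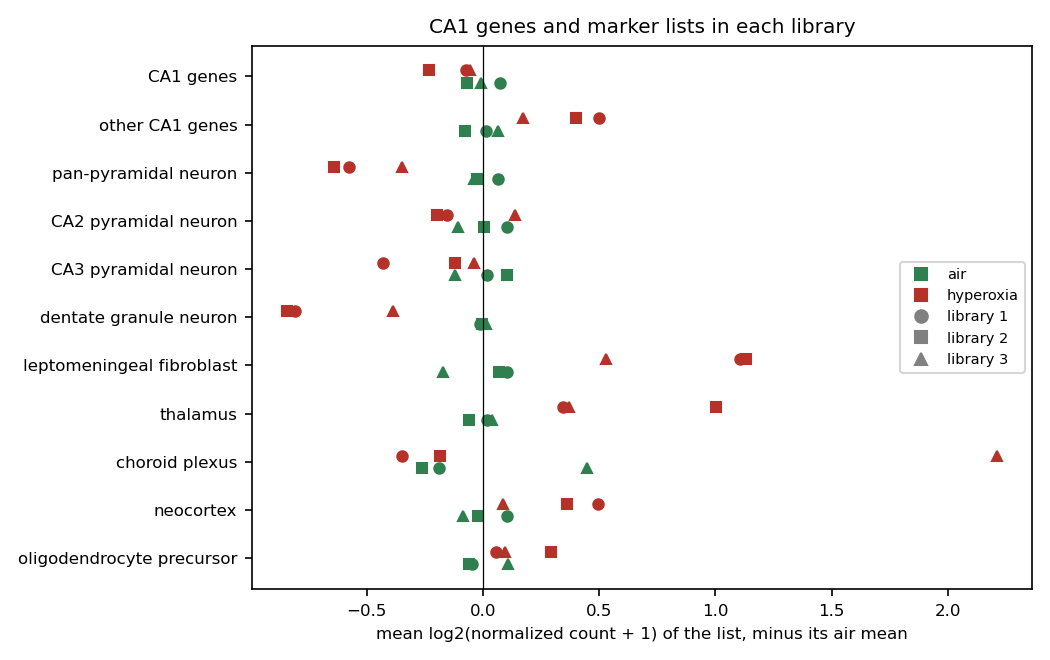
Mean log2 value of each marker list in each library, minus its mean over the air libraries, with 1 point per library. The 10 CA1 genes stay near 0 with hyperoxia library 2 lowest at -0.23. The other CA1 genes lie above 0 in all 3 hyperoxia libraries, at 0.50, 0.40 and 0.17. Pan-pyramidal and dentate lists lie below 0 and the fibroblast list above 0 in all 3 hyperoxia libraries.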

How the data were processed

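Hippocampal mRNA was sequenced from 3 air-exposed and 3 hyperoxia-exposed mice as strand-specific paired-end libraries. Per the submitters' processing notes, FastQC, STAR 2.5.3a, HTSeq and DESeq2 were used. The strand setting of counting, the annotation and the genome build were not given in the sources used here, so reads of overlapping antisense genes may not be separable. The deposited signal values are normalized counts, made by the authors by dividing whole read counts by 1 size factor per library. Dividing by the value of 1 read returned whole reads for 100% of values within 0.01. A second deposited table holds the authors' own comparison (mean level, fold change, standard error, test statistic and p-values) and was not used.

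Values were tested as log2(value + 1) in limma 3.58.1 under R 4.3.3, using its mean-variance trend, for the 17778 genes whose mean was at least 10, with Benjamini-Hochberg adjustment over them. No batch is labelled. The litter of each pup is not labelled either, and pups were exposed with their dams, so litter and oxygen cannot be told apart. Libraries held 30384052 to 38746972 reads on genes, and p-values measure the spread between these animals only. With 3 against 3, an exact permutation test cannot go below p = 0.1, so none was used. Coordinates and exon lengths were from GENCODE M21 (GRCm38), in which 99.68% of gene IDs were found, 84.82% with the same version. Other settings were pseudocounts of 0.5 and 5, no filter and a mean of at least 50, quantile and TMM scaling, limma without the trend, edgeR 4.0.16 and DESeq2 1.42.0 on recovered reads, each library left out, a length and GC correction (mgcv 1.9.3) and a replicate block. The test was tried on simulated data first.

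The genes named were all 10 CA1 genes, up to 4 called genes with the largest change of each list, and the closest relatives by name, except that some genes under this rule are not reported here. The members and lists were chosen with earlier results of these data known.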

Additional observations from a re-analysis of the deposited data

How the results depend on the processing

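Over 17 alternative settings, the 10 CA1 genes gave 170 changes, of which 145 kept their direction and side of the threshold, 9 lost the call, 8 gained it and 8 reversed. Gm2115 was called in all 17, Nov in 13 and Mpped1 in 12. Of the 968 changes of 57 other named genes, 894 kept direction and side, 67 lost the call, 3 gained it and 4 reversed. The 3 calls among the CA1 genes became 1 without the limma trend (0 higher) and 5 with the length and GC correction (3 lower). Over all genes, 4224 of 17778 were called without the trend and 6159 of 17735 with the length and GC correction. Leaving out single libraries gave 1 to 6 calls, 0 to 2 higher and 1 to 4 lower, where leaving out air library 2 or air library 3 gave 1 call and leaving out hyperoxia library 3 gave 6. Over all genes the 5425 calls ranged from 3048 to 7756, and over the related lists the 64 calls ranged from 41 (without air library 2) to 74. edgeR called 5501 genes and DESeq2 5611 on recovered reads.

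Dcn reversed to -0.12 with the length and GC correction and ranged from -0.25 to 0.46 with single libraries left out. Ndst4 went to -0.0050 with quantile scaling, to -0.33 with the length and GC correction and from -0.24 to 0.25 with single libraries left out. Ndst3 went to -0.17 with the length and GC correction and ranged from -0.015 to 0.054, and Pou3f4 from -0.031 to 0.18, with single libraries left out. The cause of these shifts was not tested. Same-numbered air and hyperoxia libraries did not deviate together (correlations of -0.08, 0.13 and 0.10), and not every library matched its own number best, so the numbers were not taken as pairs. With the replicate block, 2 CA1 genes were lower (Gm2115 and Fibcd1, the latter at adjusted p = 0.024 by limma), and 6211 genes were called in all.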
